A study of Homo sapiens with 8 samples.

Results

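The comparison described here is that of etoposide added to cells already expressing AIRE. It uses 4 of the 8 FAIRE-seq libraries of the series, DoxEtop replicates 1 and 2 set against Dox replicates 1 and 2, chosen by their labels, and all 256141 genomic windows of the deposited count table. The cells were AIRE-Tet, a HEK293 (human embryonic kidney) Tet-On line in which doxycycline switches on human AIRE. Dox cells received 1.5 µM doxycycline 20 to 24 h after plating, and DoxEtop cells received the same doxycycline and then, after 24 h of induction, 2 µM etoposide for 24 h. The other 4 libraries, from the same line without doxycycline, were untreated (Control, 2 replicates) or given the same dose of etoposide for 24 h (Etop, 2 replicates). All 4 groups therefore share the AIRE transgene, which is expressed in a kidney-derived line and not in thymus. The labels describe the replicates as independent biological ones, and no group that would separate doxycycline from AIRE itself was analysed here.

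In medullary thymic epithelial cells AIRE (autoimmune regulator) turns on many tissue-restricted genes, so that developing T cells meet the products of genes otherwise used elsewhere in the body. Etoposide traps topoisomerase II after it has cut DNA and leaves double-strand breaks. AIRE is known to interact with topoisomerases and with proteins of the response to DNA breaks, which gives the question behind the design: whether breaks go with a change in chromatin structure when AIRE is present. FAIRE-seq isolates DNA that is poorly bound by nucleosomes, because fixed nucleosomal DNA is lost on phenol-chloroform extraction, so a high count marks open chromatin.

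Each window was 150 bp long and windows started every 50 bp, so that neighbouring windows share fragments. Neighbouring windows were joined across gaps of up to 100 bp, which gave 35741 regions with a median width of 350 bp. Counts were also summed over 2192 segments of 1 Mb that held at least 5 windows, over 24 chromosomes and over 5 classes of region width. The column totals were 5169600 and 4489871 in the Dox libraries and 5305079 and 5034832 in the DoxEtop libraries, against 4568818 to 8275911 in the other 4. Levels are counts-per-million values (CPM) relative to the column total, and a level of a region or segment is a sum over its overlapping windows. Because each library was scaled to its own total, a gain or loss of openness over the whole genome would not be visible, and every difference is one in the share of the signal. Over region levels the 2 Dox libraries correlated at r = 0.932 on the log2 scale, the 2 DoxEtop libraries at 0.922, and Dox with DoxEtop libraries at 0.923 to 0.930. By this measure a DoxEtop library was about as close to a Dox library as to its own replicate.

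At the scale of single open sites no window changed at a false discovery rate of 0.05. edgeR's quasi-likelihood test called 0 of 256141 windows (0%), with a smallest adjusted p of 0.999984, and 0 of 35741 regions (0%), with a smallest adjusted p of 0.371. At an unadjusted p below 0.05 the same test counted 10941 windows (4.27%), of which 5011 were higher (1.96%) and 5930 lower (2.32%) in DoxEtop. Among regions 1759 (4.92%) reached that level, 720 higher (2.01%) and 1039 lower (2.91%). Other tools called few: limma-voom called 8 windows and DESeq2 called 0, while for regions limma-voom called 0 and DESeq2 called 2, 1 in each direction. The 2 regions that DESeq2 called were both on chromosome 7 and are described with the single regions. Leaving out DoxEtop replicate 2 gave 12 called regions in edgeR, all lower, whereas leaving out any other of the 4 libraries gave 0.

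Window differences lay about evenly on both sides of 0. The median log2 fold change of DoxEtop against Dox over all windows was -0.0068, with quartiles at -0.35 and 0.33. A total of 9324 windows lay below a log2 fold change of -1 and 7552 above 1. The precision at this depth sets what could be seen: the median standard error of a window's log2 fold change was 0.537 and the median 95% interval reached 1.08 to each side. Counts were simulated for this comparison from the fitted spread, with 100 features changed at each fold, so recovery of a lone change was not measured. In them the test recovered 2% of windows changed 2-fold and 39% changed 4-fold, and for regions 16% and 67%. A 2-fold change at a single site was therefore mostly not detectable, whereas the intervals of segments (median 0.279 to each side) and chromosomes (0.0715) were much narrower.

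One place stood out. The segment at 26 to 27 Mb of chromosome 20 (hg19) was the only one of 2192 that changed (0.0456% of segments, with 6.52% at an unadjusted p below 0.05), and all of its 33 windows lay in 1 region of 1950 bp at chr20:26188701-26190650. Its level was 981 and 1135 CPM in the Dox libraries and 1623 and 1935 CPM in the DoxEtop libraries. The groups did not overlap, and DoxEtop was higher 1.68-fold on the means (1058 ± 109 against 1779 ± 221 CPM, SD, n = 2 each). The fitted log2 fold change was 0.75 (SE 0.138, 95% interval 0.47 to 1.03; edgeR adjusted p = 0.0211). Tested among regions instead of segments, the same counts gave an adjusted p of 0.371 in edgeR.

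This region's strongest window ranked first of all windows by mean level over the 8 libraries, and 19 of its windows were among the strongest 100. The plot of its windows shows a lower hump near its start and a higher one in its second part, in all 8 libraries. In 33 of 33 windows both DoxEtop libraries exceeded both Dox libraries, by 1.36-fold to 3.63-fold on the means. The place was chosen by the sum of these windows, and neighbouring windows share fragments. The windows are therefore not separate observations, and their count adds no support to the call. The largest fold was in a low window at the end of the region, 1700 bp from its start, where the outline differed between libraries. That window was at 2.51 and 2.00 CPM in Dox, 5.47 and 10.9 CPM in DoxEtop, 0.85 and 2.65 CPM in Control and 2.52 and 6.13 CPM in Etop. Without AIRE induction the 2 etoposide libraries were unlike each other, with 824 and 1467 CPM against 919 and 831 CPM in Control, so those groups overlapped. The test of whether the etoposide difference itself depended on induction did not pass (edgeR adjusted p = 0.996). The call depended on the Dox libraries: leaving out Dox replicate 1 gave an adjusted p of 0.994 and leaving out Dox replicate 2 gave 0.507, in edgeR, with log2 fold changes of 0.65 and 0.86. DESeq2 gave an adjusted p of 0.568 for the segment with a log2 fold change of 0.77, and limma-voom 0.0408. Whether the sequence occurs in more than 1 copy of the genome was not tested.

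**Figure D1:**
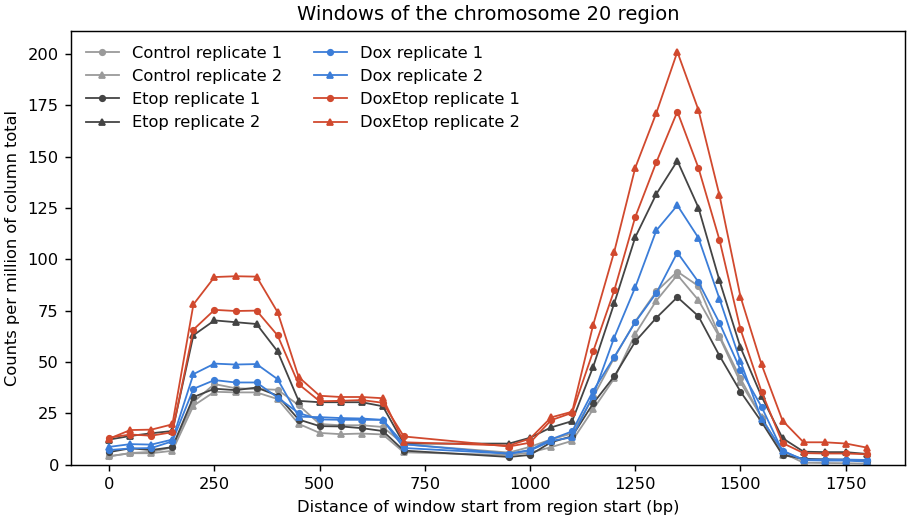
Level in CPM (y axis) of the 33 windows of the chromosome 20 region against the distance of the window start from the region start in bp (x axis), with 1 line per library. Both DoxEtop lines run above both Dox lines in 33 of 33 windows, which share fragments and are not separate observations. Etop replicate 2 runs between the Dox and DoxEtop lines in the strongest windows, while Etop replicate 1 lies with the Control libraries.

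At the scale of whole chromosomes the differences were small. edgeR's test called 0 of 24 chromosomes (0%), with 3 (12.5%) at an unadjusted p below 0.05, namely chromosomes 17, 22 and X, each at an adjusted p of 0.0802. limma-voom and DESeq2 were not run on chromosome sums. In 8 chromosomes (33.3%) both DoxEtop libraries were above both Dox libraries, namely 9, 14, 16, 17, 20, 21, 22 and Y, and in 7 (29.2%) both were below, namely 1, 4, 5, 6, 10, 13 and X. In the remaining 9 the libraries overlapped, with log2 fold changes of -0.03 to 0.01. Chromosome Y held 20 windows and is not described further.

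Chromosome 22 took 3.31% and 3.33% of the counts in the Dox libraries and 3.52% and 3.45% in the DoxEtop libraries. Both DoxEtop libraries were higher, with a log2 fold change of 0.07 (SE 0.0169, 95% interval 0.030 to 0.11; edgeR adjusted p = 0.0802). Chromosome 17 took 7.93% and 7.80% in Dox and 8.20% and 8.18% in DoxEtop, again without overlap, with a log2 fold change of 0.06 (SE 0.0151, 95% interval 0.021 to 0.097; edgeR adjusted p = 0.0802). Chromosomes 17 and 22 are small or mid-sized autosomes known to be rich in genes, but a link of the differences to gene content was not tested. Chromosome 21 was also higher without overlap (log2 fold change 0.07; edgeR adjusted p = 0.339), and chromosome 19 overlapped (-0.03). Within chromosome 22, 24 of 34 segments lay above a log2 fold change of 0, 13 with groups that did not overlap against 1 in the other direction. Within chromosome 17, 47 of 76 segments lay above 0, with 25 non-overlapping higher and 10 lower. Over all 2192 segments 345 (15.7%) were higher without overlap and 526 (24%) lower, so both chromosomes leaned the other way from segments at large.

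Chromosome X was lower. It took 2.56% and 2.59% of the counts in Dox and 2.38% and 2.44% in DoxEtop. Its log2 fold change was -0.09 (SE 0.0224, 95% interval -0.15 to -0.04; edgeR adjusted p = 0.0802), the lowest of any chromosome. The difference was spread along the chromosome: 68 of its 89 segments lay below 0, with a median of -0.11 against -0.03 for all segments, and 38 were lower without overlap against 7 higher. In uninduced cells chromosome X held 2.55% and 2.62% in Control and 2.49% and 2.54% in Etop, and the test of a different etoposide effect with induction did not pass (edgeR adjusted p = 0.886).

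Chromosome 20 had the highest log2 fold change of the chromosomes other than Y, 0.11 (SE 0.0623; edgeR adjusted p = 0.608), with levels of 13347 and 13581 CPM in Dox and 14210 and 14768 CPM in DoxEtop. Most of that difference was the single region described above. Without it, chromosome 20 was at 12366 and 12446 CPM in Dox and 12587 and 12833 CPM in DoxEtop, a log2 fold change of 0.03 (SE 0.0509; edgeR adjusted p = 0.824).

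**Figure D2:**
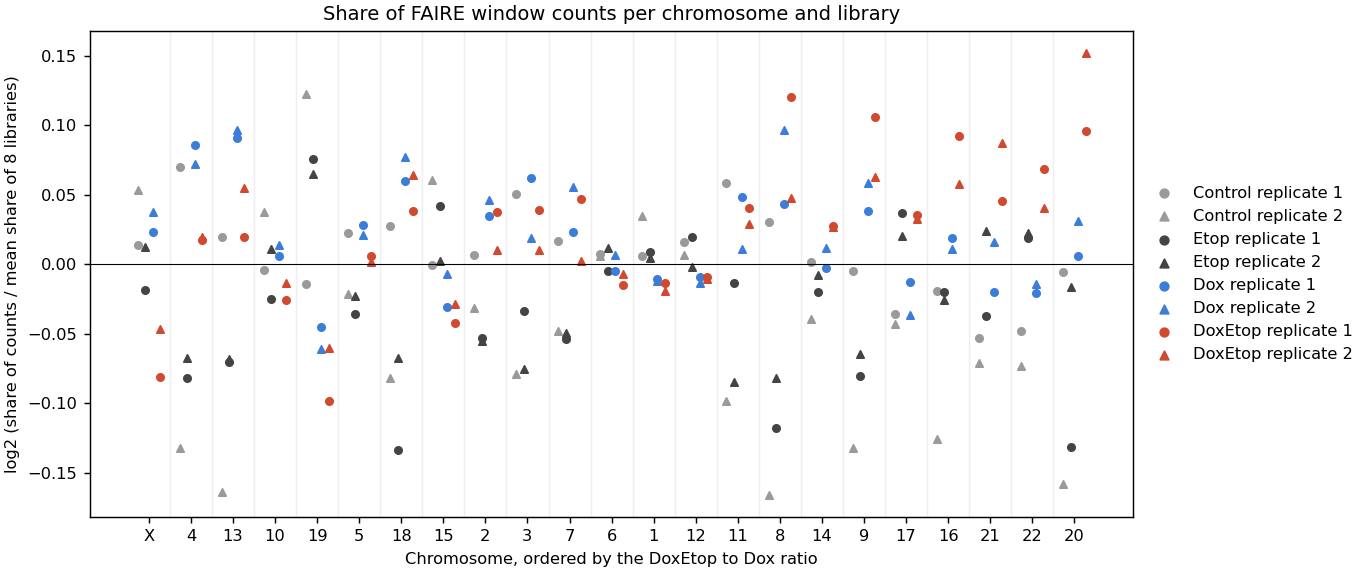
Share of counts per chromosome in each of the 8 libraries (y axis: log2 of the share divided by the mean share of all 8), with chromosomes ordered by the DoxEtop to Dox ratio and chromosome Y left out. The red DoxEtop points lie below the blue Dox points on chromosome X and above them on chromosomes 17, 21, 22 and 20, at distances mostly under 0.1.

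Chromosome 19 held the largest share of the signal of any chromosome, 15.55% and 15.38% in Dox and 14.99% and 15.39% in DoxEtop, and its total overlapped between groups. Inside it the parts on either side of its widest stretch without windows (24216401 to 28282550) differed in opposite directions. The part before that stretch took 3.37% and 3.38% in Dox and 3.61% and 3.52% in DoxEtop, and 16 of its 21 segments lay above 0. The part after it went from 12.18% and 11.99% to 11.37% and 11.87%, and 21 of its 32 segments lay below 0, as did 56.8% of all 2192 segments. The stretch from 30 to 39 Mb was at 4.78% and 4.71% in Dox and 4.24% and 4.42% in DoxEtop. Of its 9 segments 9 lay below 0, and 7 were lower without overlap, against 24% of all 2192 segments. The same stretch held 4.77% and 5.59% in Control and 5.05% and 5.11% in Etop, which overlapped. These parts of chromosome 19 were chosen after their values were seen. Their counts of segments partly follow from that choice, and no test was made of them.

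A pair of segments of that stretch were among the 5 with the smallest p in the lower direction. Segment chr19:30 was at 4228 and 4455 CPM in Dox and 3643 and 3852 CPM in DoxEtop, a log2 fold change of -0.21 (SE 0.0565), which did not pass in edgeR (adjusted p = 0.633). Segment chr19:35, at 6779 and 6704 CPM in Dox and 5678 and 5996 CPM in DoxEtop, likewise had a log2 fold change of -0.21, with 6726 and 7904 CPM in Control and 6679 and 7134 CPM in Etop. In a fit on the 4 libraries alone both passed (edgeR adjusted p = 0.0104 and 0.00224), where the spread rests on 2 residual degrees of freedom.

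The other segments of lowest p behaved as follows, none past the threshold (edgeR adjusted p of 0.633 to 0.725). Segment chrX:68 was at 678 and 675 CPM in Dox and 553 and 547 CPM in DoxEtop, a log2 fold change of -0.30 (SE 0.0799). Its uninduced values were 649 and 701 CPM in Control and 691 and 659 CPM in Etop, so only the DoxEtop libraries lay apart. Segment chr7:123 was at 193 and 175 CPM against 134 and 124 CPM (log2 fold change -0.52), with 153 to 169 CPM in the 4 uninduced libraries. By contrast segment chr10:45 was lower with etoposide in both settings, with 352 and 400 CPM in Dox, 290 and 298 CPM in DoxEtop, 410 and 443 CPM in Control and 308 and 345 CPM in Etop. Segment chr22:38 was higher with etoposide in both, with 2490 and 2418 CPM in Dox, 2837 and 2790 CPM in DoxEtop, 2597 and 2540 CPM in Control and 2994 and 2966 CPM in Etop. Segment chr22:26 was at 148 and 155 CPM in Dox and 207 and 209 CPM in DoxEtop, with 150 and 200 CPM in Control and 172 and 211 CPM in Etop. Of its uninduced libraries only Etop replicate 2 reached the DoxEtop level. The remaining pair, chr3:114 with 6 windows and chr3:192 with 7, had 6.0 and 13.1 CPM in Dox against 24.1 and 23.0 CPM in DoxEtop, and 14.5 CPM in both Dox libraries against 29.8 and 35.2 CPM. In the uninduced libraries chr3:114 was at 14.1 and 24.2 CPM in Control and 22.3 CPM in both Etop libraries, and chr3:192 at 14.7 and 16.2 CPM in Control and 11.9 and 30.4 CPM in Etop.

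The difference of DoxEtop from Dox can be set beside that of Etop from Control, since the comparisons have no library in common. For Etop against Control edgeR, limma-voom and DESeq2 each called 0 windows (0%), with 14210 (5.55%) at an unadjusted p below 0.05 in edgeR. Without Etop replicate 2 edgeR called 313 windows and without Control replicate 2 it called 12. Over single windows the 2 differences were weakly correlated (r = 0.0749, n = 256141), and 52.5% had the same sign. The median standard error of DoxEtop against Dox was 0.537 for windows and 0.136 for segments. A low r over windows therefore cannot tell unlike effects from error. Over segments r rose with the number of windows, from 0.125 over 2192 segments to 0.356 over the 676 with at least 100 windows. It was 0.525 over the 336 with at least 200 and 0.718 (Spearman's rho 0.679) over the 121 with at least 400. Among those 121 segments 105 had the same sign in both, 88 above 0 and 17 below, whereas over all 2192 segments 57.1% had the same sign. Their log2 fold changes stayed within -0.21 and 0.20 with induction and within -0.17 and 0.22 without it. Over the 23 chromosomes other than Y, r was 0.678 (Spearman's rho 0.618) and 18 had the same sign. Segments are not independent replicates, and shares of 1 total depend on each other, so these values are descriptions.

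**Figure D3:**
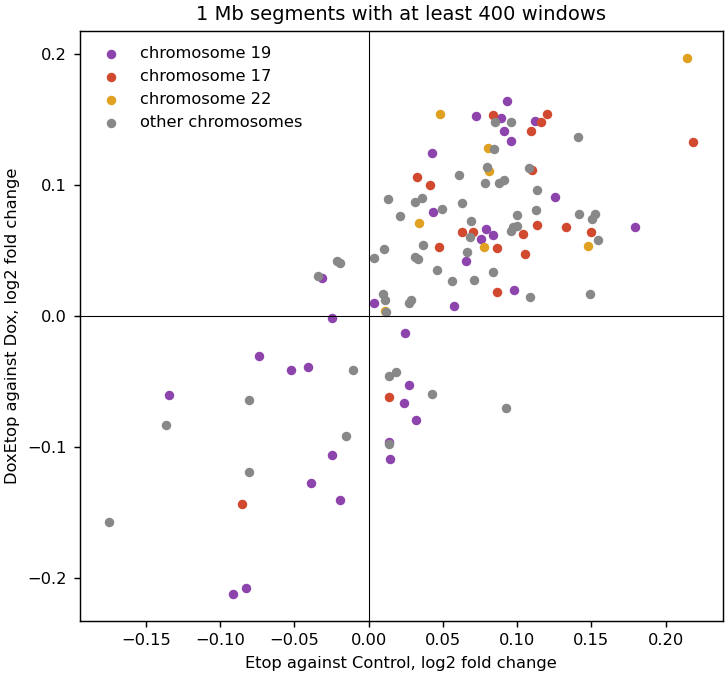
Log2 fold change of DoxEtop against Dox (y axis) and of Etop against Control (x axis) for the 121 segments of 1 Mb with at least 400 windows, 1 point per segment. In 105 of the 121 segments both differences have the same sign, and the lowest points on the y axis belong to chromosome 19.

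The interaction test, which asks whether the etoposide difference differed between induced and uninduced cells, called 0 windows, 0 regions, 0 segments and 0 chromosomes (0% each) in edgeR. At an unadjusted p below 0.05 it counted 10557 windows (4.12%), 1391 regions (3.89%), 72 segments (3.28%) and 0 chromosomes. For windows, regions and segments limma-voom and DESeq2 also called 0. The count depended on the uninduced libraries: without Control replicate 2 edgeR called 4 windows, 1 region and 8 segments, without Etop replicate 2 it called 3 regions and 1 segment, and without Control replicate 1 it called 2 chromosomes. The region with the smallest interaction p, chr3:183894251-183894550, was at 15.3 and 20.3 CPM in Dox and 5.47 and 3.38 CPM in DoxEtop, against 7.25 and 8.25 CPM in Control and 26.2 and 14.2 CPM in Etop. It went opposite ways in both settings without overlap, but its adjusted p in edgeR rounded to 1. The median 95% interval of a window's interaction reached 1.49 on the log2 scale to each side, so differences of that size could not be seen window by window.

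The etoposide effect was also fitted over all 8 libraries, with AIRE induction as a second term. The reason was that the differences mostly had like signs over chromosomes and densely covered segments. This fit was chosen after seeing the data and uses the 4 libraries of the comparison together with the other 4. Chromosomes 17 and 22 passed in it, 2 of 24 (8.33%), and 4 passed without Control replicate 1 or 2. Chromosome 17 was higher by 4.5% with etoposide (log2 fold change 0.06, 95% interval 0.041 to 0.086; edgeR adjusted p = 0.00478), and its share was 8.11% to 8.21% in the 4 etoposide libraries and 7.76% to 7.93% in the other 4. Chromosome 22 was higher by 5.47% (log2 fold change 0.08, 95% interval 0.051 to 0.10; edgeR adjusted p = 0.00478), with 3.40% to 3.52% against 3.19% to 3.33%. For both, the 4 etoposide libraries lay above the 4 others. An exact permutation test of 4 libraries against 4, leaving induction aside, gave p = 0.0286 for both. That is the smallest p this test can give, and it was not adjusted. Both remained called with TMM scaling, with the replicate block and without each library in turn (edgeR adjusted p of 0.00512 to 0.0317). Chromosome X was lower in the 4 etoposide libraries than in the other 4 as well, but did not pass in this fit (edgeR adjusted p = 0.0796). Its exact permutation p was also 0.0286. In all other chromosomes the etoposide libraries overlapped with the rest.

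Among segments the fit over 8 libraries called 3 of 2192 (0.137%) and among regions and windows it called 0 (0% each). At an unadjusted p below 0.05 edgeR counted 2122 regions and 14867 windows in it, and no other tool was run for this fit. Segment chr22:38 was higher by 15.3% (2897 ± 98.9 against 2511 ± 76.3 CPM, SD, n = 4 each; edgeR adjusted p = 0.00352). Segment chr10:45 was lower by 22.7% (310 ± 24.1 against 401 ± 37.4 CPM, SD, n = 4 each; edgeR adjusted p = 0.00991). In both the arms did not overlap. These segments were picked by their small p in the same data, and the share of all segments with that order was not counted. The third was the chromosome 20 segment (edgeR adjusted p = 0.00151), whose arms overlapped. The exact permutation test gave an unadjusted p of 0.0286 for chr22:38 and chr10:45 and 0.143 for the chromosome 20 segment. All 3 calls were lost without Dox replicate 2 (edgeR adjusted p = 0.077 for chr22:38, 0.206 for chr10:45 and 0.077 for chromosome 20). The chr10:45 call was also lost without Control replicate 2 (edgeR adjusted p = 0.0516) or Etop replicate 1 (0.0799), and that on chromosome 20 without Etop replicate 2 (0.131). The number of segments called ran from 0 without Dox replicate 2 to 30 without Control replicate 1, and was 7 without Control replicate 2 and 9 with the replicate block.

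The segments were also grouped by how densely they were covered with windows, in classes chosen after seeing the data and without a test. Segments with at least 400 and under 800 windows took 19.03% and 18.93% of the counts in Dox and 19.91% and 19.57% in DoxEtop, a log2 ratio of 0.06. They took 19.08% and 19.05% in Control and 20.03% and 19.64% in Etop, the same ratio. Sparse segments went the other way: those with 1 to 49 windows held 8.91% and 8.95% in Dox and 8.6% and 8.79% in DoxEtop, and those with 50 to 99 held 14.2% and 14.3% against 14.0% and 13.9%. In the densest class, with 800 or more windows, DoxEtop was slightly lower (log2 ratio -0.02). That class was mostly chromosome 19. Its 12 segments on other chromosomes held 4.86% and 4.85% in Dox and 4.98% and 4.93% in DoxEtop, a log2 ratio of 0.03. The gain of share in dense segments was thus a matter of a few percent of their level.

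**Figure D4:**
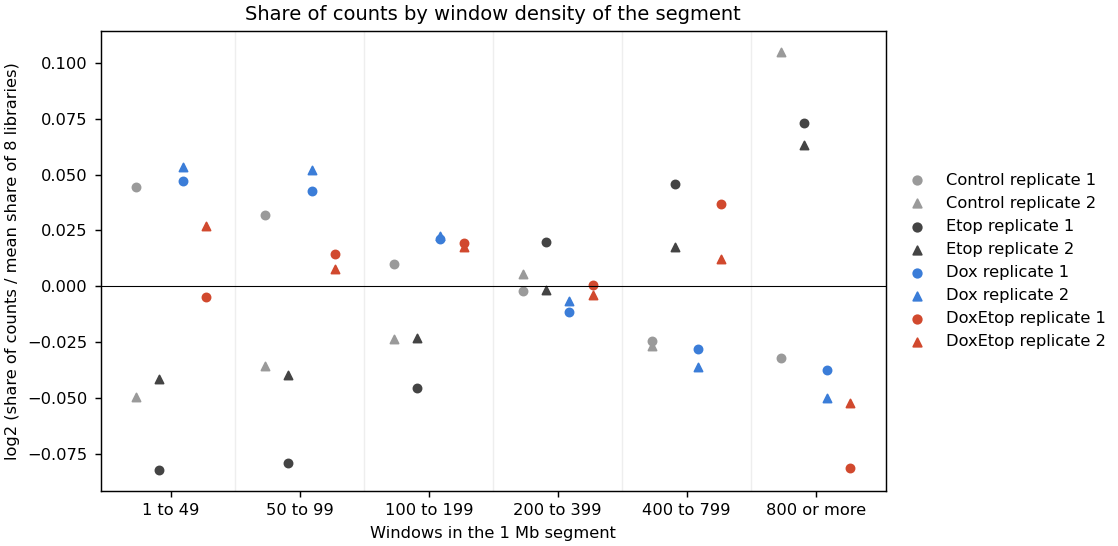
Share of counts in segments grouped by their number of windows (x axis) in each of the 8 libraries (y axis: log2 of the share divided by the mean share of all 8). With at least 400 and under 800 windows the red DoxEtop and black Etop points lie above the blue Dox and grey Control points, and with 50 to 99 windows the red points lie below the blue ones.

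No class of region width passed the test, and strong and weak windows kept their shares. Regions up to 300 bp wide were at 98609 and 98232 CPM in Dox and 90940 and 96982 CPM in DoxEtop, a log2 fold change of -0.07 (95% interval -0.25 to 0.12). For regions over 1000 and up to 2000 bp it was 0.04 (95% interval -0.03 to 0.11), and for the other 3 classes it lay between -0.03 and 0.01. DoxEtop was lower than Dox without overlap in each class up to 500 bp and higher without overlap in each class over 1000 bp. In uninduced cells regions up to 300 bp had a log2 fold change of 0.05 for Etop against Control, with overlap. In edgeR 0 of 5 classes passed (0%), 0 had an unadjusted p below 0.05, and adjusted p ran from 0.698 to 0.897. When windows were split into 5 equal classes by mean level, each class kept its share of counts within a log2 ratio of -0.01 to 0.01. The strongest 1% of windows held 3.17% and 3.09% in Dox and 3.14% and 3.24% in DoxEtop, a ratio of 0.03 that became -0.01 without the chromosome 20 region. Within the 3089 regions over 1000 bp the highest window took 6.905% and 6.805% of the counts in Dox and 6.802% and 6.758% in DoxEtop. That share was thus slightly lower in DoxEtop, without overlap. It was 6.985% and 6.283% in Control and 6.565% and 6.349% in Etop, so replicates of a group could lie further apart than Dox and DoxEtop did. Windows 300 bp from the highest one averaged 3.76 and 3.90 CPM in Dox and 4.06 and 3.92 CPM in DoxEtop. The log2 ratio of DoxEtop to Dox was 0.06 there, 0.018 at the highest window, 0.015 at 900 bp and again 0.06 at 1000 bp. It thus did not fall steadily with distance. No test was made of this shape.

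The single regions that came nearest to passing were small, and 10 in each direction are described as values only, since none passed in edgeR. The 10 higher ones, on 8 chromosomes, were 200 to 1950 bp wide, with log2 fold changes of 0.75 to 3.59 and adjusted p of 0.371 to 0.977. The 10 lower ones, on 6 chromosomes, were 200 to 950 bp wide, with log2 fold changes of -2.72 to -1.12 and adjusted p of 0.66 to 0.977. Non-overlap of DoxEtop and Dox was a condition of this choice, and over all regions it held for 15.9% in the higher and 19% in the lower direction. The order of the libraries within the 20 regions was therefore partly fixed by the choice and supports nothing. The genes at these places were not assigned, since no annotation of hg19 was at hand.

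Of the higher regions, chr7:1733851-1734200 was at 7.16 and 8.02 CPM in Dox and 33.4 and 33.6 CPM in DoxEtop. In Control it was at 12.8 and 15.9 CPM and in Etop at 16.7 and 21.4 CPM, so the DoxEtop libraries were the highest of the 8 and the Dox libraries the lowest. Its log2 fold change was 2.14 (SE 0.464; edgeR adjusted p = 0.66; DESeq2 adjusted p = 0.00119). Its window at 1734001 to 1734150 held 8 and 5 counts in Dox and 39 and 38 in DoxEtop. The region chr16:3507501-3508250 was likewise highest in DoxEtop, at 70.9 and 83.6 CPM, against 32.3 and 37.9 CPM in Dox and 24.3 to 47.4 CPM in the uninduced libraries.

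Most of the higher regions had another order. In 8 of the 10 both Dox libraries lay below all 6 others, an order found in 4.19% of all regions and in 26.4% of the 5673 with DoxEtop above Dox without overlap. In 3 of the 10 both DoxEtop libraries lay above all 6 others, against 5.43% and 34.2%. At chr6:30737351-30737700 the Dox libraries had 3.87 and 3.79 CPM and DoxEtop 16.02 and 15.1 CPM, below the 17.5 to 26.5 CPM of the uninduced libraries. At chr6:31744301-31745400 the values were 49.1 and 54.1 CPM in Dox, 85.8 and 99.9 CPM in DoxEtop, 72.4 and 68.7 CPM in Control and 123 and 121 CPM in Etop, so etoposide libraries were higher in both settings. At chr2:133034301-133034950 they were 108 and 98.2 CPM in Dox and 153 and 205 CPM in DoxEtop, against 132 and 189 CPM in Control and 171 and 245 CPM in Etop.

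In 10 of the 10 lower regions both DoxEtop libraries lay below all 6 others, an order found in 6.82% of all regions and in 35.9% of the 6797 with DoxEtop below Dox without overlap. The region chr7:131198251-131198600 was at 23.2 and 28.1 CPM in Dox and 5.09 and 5.36 CPM in DoxEtop, with 18.4 and 25.6 CPM in Control and 12.6 and 14.4 CPM in Etop. Its log2 fold change was -2.29 (SE 0.494; edgeR adjusted p = 0.66; DESeq2 adjusted p = 0.00284). At chr5:39424851-39425450 the DoxEtop values of 17.9 and 22.6 CPM stood below 43.7 and 53.5 CPM in Dox and 40.2 to 48.2 CPM in the uninduced libraries. At chr1:225650851-225651400 they were 9.24 and 12.5 CPM against 35.6 and 22.3 CPM in Dox, and at chr19:4474101-4475050 42.4 and 21.5 CPM against 70.6 and 68.4 CPM. The DoxEtop replicates of the last region were far apart: its log2 fold change was -0.71 without replicate 2 and -1.69 without replicate 1.

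In 3 of the 10 lower regions Etop was also below Control without overlap. That order held in 16.4% of all regions and in 19.5% of the 6797 with DoxEtop below Dox without overlap. In 3 of the 10 higher regions Etop was above Control, against 16.4% of all regions and 20% of the 5673 with DoxEtop above Dox without overlap. At chr1:235026751-235026950 the level was 9.29 and 6.90 CPM in Dox and 1.51 and 0.99 CPM in DoxEtop, and 9.18 and 9.13 CPM in Control and 2.66 and 2.19 CPM in Etop. Its window at 235026751 to 235026900 held 27 and 17 counts in Dox, 4 and 1 in DoxEtop, 36 and 31 in Control and 6 in each Etop library. The window at 102758051 to 102758200 of chromosome 10 had the same order, with 47 and 50 counts in Dox, 15 and 14 in DoxEtop, 62 and 32 in Control and 19 and 17 in Etop. These low counts give wide errors, and neither window passed in edgeR (adjusted p = 1 after rounding).

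**Figure D5:**
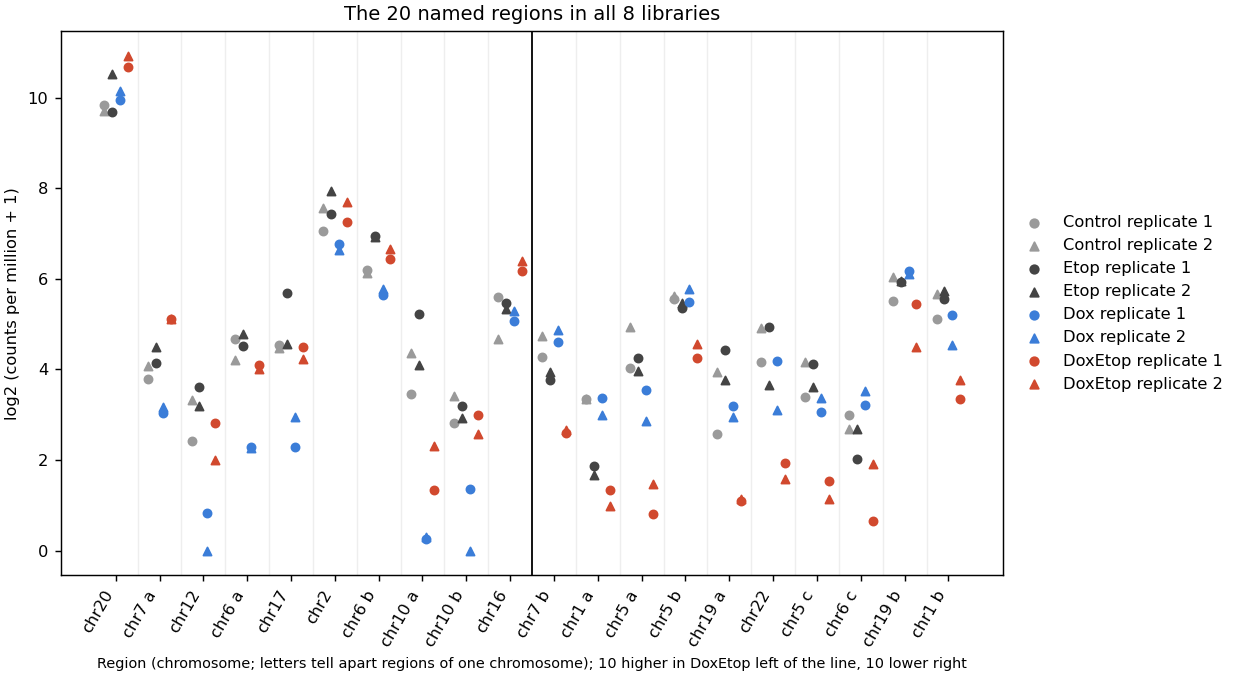
Level of the 20 regions with the smallest p (x axis, named by chromosome; 10 higher in DoxEtop left of the line and 10 lower right of it) in each of the 8 libraries (y axis: log2 of CPM plus 1). Left of the line the blue Dox points are the lowest of the 8 in 8 of 10 regions, and right of it the red DoxEtop points are the lowest in 10 of 10.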

How the data were processed

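FAIRE-seq libraries came from fixed AIRE-Tet cells and were sequenced with paired reads of 100 bp, per the labels' protocols. Trim Galore, Bowtie2, Bowtie and hg19 are named in the submitters' processing notes. How they were used and how windows were chosen is not given in the sources used here. The authors deposited raw counts per window, 1 column per library. Each window held at least 111 counts over the 8 libraries, and 0 columns belonged to other samples.

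Counts, scaled to column totals, were tested with edgeR 4.0.16 (R 4.3.3; glmQLFit and glmQLFTest, two-sided, 1 mean per group over 8 libraries, 4 residual degrees of freedom), with Benjamini-Hochberg adjustment at 0.05 within each kind of feature. The common biological coefficient of variation was 26.4% for windows and 11% for segments. Alternatives used limma 3.58.1 (voom) and DESeq2 1.42.0. In simulated counts for DoxEtop against Dox, with 100 segments changed at each fold, the test recovered 70% changed 1.5-fold and 93% changed 2-fold. It made 8 false calls. An exact permutation test of 2 libraries against 2 cannot go below p = 0.333 and was not used for DoxEtop against Dox. For etoposide over 8 libraries it was run as 4 against 4. Replicates differed beyond sampling noise (chi-square per degree of freedom 1.83 to 3.10). Segments are named by their chromosome and the Mb at which they start.

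The features described were all called ones, the 10 non-overlapping regions, 5 segments and 5 windows (1 per region) with the smallest p in each direction, and all chromosomes and width classes. Of these, the regions, windows and chromosomes not named singly are covered by ranges and counts or left out. The comparison and its classes were chosen with earlier results of these data known.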

Additional observations from a re-analysis of the deposited data

How the results depend on the processing

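Same-numbered libraries did not deviate together (r between Dox and DoxEtop deviations -0.0394, other group pairs -0.0826 to 0.146), so the numbers were not taken as pairs. With the replicate block, DoxEtop against Dox gave 1 called region and 1 called chromosome (X, lower, edgeR adjusted p = 0.0376), Etop against Control 5 windows, and etoposide over 8 libraries 9 segments and 4 chromosomes. Windows with at least 160 counts gave 1 region. The 4 libraries alone, with 2 residual degrees of freedom, gave 13 windows, 1 region, 3 segments and 6 chromosomes. limma-voom gave 8 windows, and DESeq2 gave 2 regions and 0 segments. TMM scaling gave 4 chromosomes for etoposide over 8 libraries. Leaving out 1 library gave 0 to 0 windows, 0 to 12 regions (12, all lower, without DoxEtop replicate 2), 0 to 1 segments and 0 to 0 chromosomes for DoxEtop against Dox. For the interaction it gave 0 to 4 windows, 0 to 3 regions, 0 to 8 segments and 0 to 2 chromosomes, for Etop against Control 0 to 313 windows, and for etoposide over 8 libraries 2 to 4 chromosomes and 0 to 30 segments. A group left with 1 library was assumed to vary like the others. For the 59 single features, 530 values kept their side of the threshold without a marked shift, 22 moved, 14 newly passed and 3 no longer passed. The sign changed in 17 of 569 values, over 8 features (chromosomes 1, 3, 7, 8, 11, 12 and 15 and regions over 500 and up to 1000 bp), none of them called and each with a log2 fold change within 0.0165 of 0. The cause of these changes was not tested. Depth limits single windows most, and intervals cover replicate spread within these libraries only.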
